A study of Homo sapiens with 24 samples.

Results

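The early response of SK-MES1 cells to TGFβ was measured as the change from 0 to 8 h in the TGFβ arm minus the change over the same hours in the untreated arm. SK-MES1 is an established human cell line that came from lung squamous cell carcinoma (LUSC). Both arms spent 3 h without growth factors, after which TGFβ1 was added at 2 ng/ml to one arm and nothing to the other. The paper names growth factor-depleted medium for TGFβ1 stimulation itself, so that the 3 h give only the time before 0 h. RNA-Seq libraries from untreated cells at 0 and 8 h and from the TGFβ arm at 0 and 8 h were used, with 3 libraries in each of the 4 groups, which makes 12 of the 24 libraries of the time course. A code in the names of the deposited tables differs between the arms but is shared by 0 and 8 h within an arm, so that an offset that follows this code cancels in the difference of the changes. This difference is called the corrected effect below. All results are from 1 cell line, and the study describes the replicates as biological. The p-values measure the spread between these libraries.

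TGFβ binds a pair of receptor kinases that phosphorylate SMAD2 and SMAD3, which join SMAD4 and enter the nucleus. There they act with other transcription factors, and among their best known targets are inhibitors of the same pathway, such as SMAD7, SKIL and PMEPA1, and the ID genes, which encode inhibitors of basic helix-loop-helix factors. In epithelial cells the pathway is known for epithelial-to-mesenchymal transition (EMT), in which factors of the SNAI family take part.

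Promoter sequences of the 4 named rising transcription factors and feedback genes with the lowest p among those with an entry are shown, because each was higher in the corrected effect. They are RefSeq windows of GRCh38.p14 from 250 bases before to 50 bases after the gene start, read 5′ to 3′ on the strand of the gene. Capitals mark matches, on either strand, to CAGACA and to the palindromes GTCTAGAC and GGCGCC, which are SMAD-type elements, or to the AP-1 element TGAGTCA. The window of PMEPA1 is chr20:57711423-57711722 on the minus strand, that of SMAD7 is chr18:48950916-48951215 on the minus strand, that of BHLHE40 is chr3:4979187-4979486 on the plus strand and that of SKIL is chr3:170357465-170357764 on the plus strand.
PMEPA1: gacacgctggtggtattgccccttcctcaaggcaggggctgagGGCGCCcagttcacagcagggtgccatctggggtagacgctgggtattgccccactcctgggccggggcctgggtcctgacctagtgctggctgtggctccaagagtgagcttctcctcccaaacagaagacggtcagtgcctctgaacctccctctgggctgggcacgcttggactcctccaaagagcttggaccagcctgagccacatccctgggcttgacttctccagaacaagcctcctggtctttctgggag
SMAD7: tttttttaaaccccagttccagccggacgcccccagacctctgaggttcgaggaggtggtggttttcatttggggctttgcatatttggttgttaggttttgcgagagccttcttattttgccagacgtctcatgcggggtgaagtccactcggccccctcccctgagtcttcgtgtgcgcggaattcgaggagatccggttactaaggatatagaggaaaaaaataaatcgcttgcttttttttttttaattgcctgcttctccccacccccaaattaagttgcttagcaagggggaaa
BHLHE40: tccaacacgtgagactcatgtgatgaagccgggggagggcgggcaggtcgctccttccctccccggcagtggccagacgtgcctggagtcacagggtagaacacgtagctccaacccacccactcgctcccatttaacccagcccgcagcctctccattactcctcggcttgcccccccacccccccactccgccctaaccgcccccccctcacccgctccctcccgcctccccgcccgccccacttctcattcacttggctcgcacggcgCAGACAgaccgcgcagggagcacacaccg
SKIL: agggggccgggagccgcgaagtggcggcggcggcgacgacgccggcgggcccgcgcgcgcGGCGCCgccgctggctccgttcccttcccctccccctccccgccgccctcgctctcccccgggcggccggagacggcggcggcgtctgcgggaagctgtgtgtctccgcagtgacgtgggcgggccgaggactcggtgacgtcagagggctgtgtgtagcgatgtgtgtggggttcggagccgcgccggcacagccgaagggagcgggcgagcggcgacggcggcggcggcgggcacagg
PMEPA1 and SKIL held 1 GGCGCC each, BHLHE40 held 1 CAGACA after its start, and the window of SMAD7 held none of these letters. Matches did not overlap. Of 27305 promoters in the table, 16.8% held CAGACA, 0.201% GTCTAGAC, 4.92% TGAGTCA and 19% GGCGCC. Among the 12229 tested genes with a promoter these shares were 13.1%, 0.204%, 3.3% and 29.4%. Of the 62 transcription factors that were higher in the corrected effect, 47 had a promoter, and 10 of these (21.3%) held CAGACA, 1 held GTCTAGAC, 1 held TGAGTCA and 12 (25.5%) held GGCGCC. The shares describe these windows and were not tested.

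The 12 libraries held 49972158 to 77964234 estimated counts, and 94.98% to 95.18% of them had a gene. The chi-square per gene between replicates, which is near 1 for sampling noise alone, was 3.17 to 22.7 in 10 of the 12 pairs. In the other 2 pairs, replicate 2 of the TGFβ arm at 0 h stood apart, with 60.5 against replicate 1 and 40.3 against replicate 3. KRT8, KRT18, SFN, TP63 and EPCAM were present in all 12 libraries, whereas the squamous keratins KRT5, KRT6A and KRT14 were at or near 0, with a highest level of 0.102 TPM. The summed level of the squamous epithelial markers was 1021 to 1156 TPM in the other 3 groups and 1250.0 to 1334 TPM in the TGFβ arm at 8 h. Most of it came from KRT8 (375 to 466 TPM), KRT18 (406 to 477 TPM) and SFN (164 to 331 TPM), not from the squamous keratins. That of the 5 leukocyte markers was 1.77 to 2.96 TPM and that of the 5 endothelial markers 0.955 to 1.80 TPM, and CD3E was at 0 in each library.

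With limma voom and an adjusted p below 0.01, 988 of 16888 tested genes (5.85%) were called in the corrected effect. Of these, 680 (4.03%) were higher and 308 (1.82%) were lower with TGFβ. The median corrected effect was 0.83 on the log2 scale for the higher genes and −0.70 for the lower genes, and 248 higher and 67 lower genes differed at least 2-fold. Without replicate 2 of the TGFβ arm at 0 h, 1242 genes were called, of which 820 were higher, and 963 of the 988 genes were called again. Of the 988 genes, 686 were called in each of the 12 fits that left out 1 library, and 504 in each of 14 other settings (other tools, scalings, filters and designs). As these are bulk libraries, fewer cells of a type and less RNA per cell cannot be told apart.

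At 0 h, where both arms were alike in treatment, limma voom and edgeR called 0 genes (0%) between the arms, and DESeq2 called 6. At an unadjusted p below 0.05, limma voom counted 634 genes, edgeR 626 and DESeq2 552. The direct comparison of the arms at 8 h called 2167 genes (12.8%). Of these, 982 were also called in the same direction in the corrected effect, which is 45.3% of the 8 h calls and 5.81% of all tested genes. With a replicate block within each arm, 694 genes were called at 8 h and 574 of them (82.7%) passed. That fit compares the arms at 8 h at the level of replicate 1, not at the arm means. Its 8 h numbers are therefore not comparable with 2167 and 45.3%. The corrected effect and the 8 h comparison share the 8 h libraries. Among the 405 genes called at 8 h with at least a 2-fold difference, 308 (76.0%) passed the correction. The 1185 genes that did not pass had a median absolute difference of 0.41 at 8 h and of 0.059 at 0 h (log2), against 0.77 and 0.053 for the genes that passed. All but 1 of the 1185 kept their sign. The standard error of the corrected effect (median 0.131, log2) was above that of the 8 h difference (median 0.091).

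The 5 genes with the largest offset at 0 h among those that did not pass were an unnamed gene (ENSG00000249072), TMEM121, OTUD7A, KRT87P and PTPN11P3. ENSG00000249072 was at 177, 538 and 74.7 TPM in the untreated libraries at 0 h and at 690, 1206 and 839 TPM in the TGFβ arm at the same time. At 8 h it was at 78.04, 424 and 96.6 TPM without and at 924, 981 and 1143 TPM with TGFβ. The arms did not overlap at either time, and the corrected effect was 0.57 ± 0.81 (SE, log2; adjusted p = 0.78 with limma voom). The other 4 were low, with group means of at most 1.97 TPM.

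A gene can be higher in the corrected effect because of either arm, since many genes also changed in untreated cells. From 0 to 8 h, 5082 genes (30.1%) were called in the TGFβ arm and 3537 (20.9%) in the untreated arm. Of the 680 higher genes, 583 rose in the TGFβ arm, 84 were not called there and 13 fell. In the untreated arm 185 of the 680 fell, 371 were not called and the others rose. The 308 lower genes fell in the TGFβ arm in 206 cases, were not called there in 82 and rose in 20. In the untreated arm 130 of the 308 rose, 117 were not called and 61 fell.

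**Figure D1:**
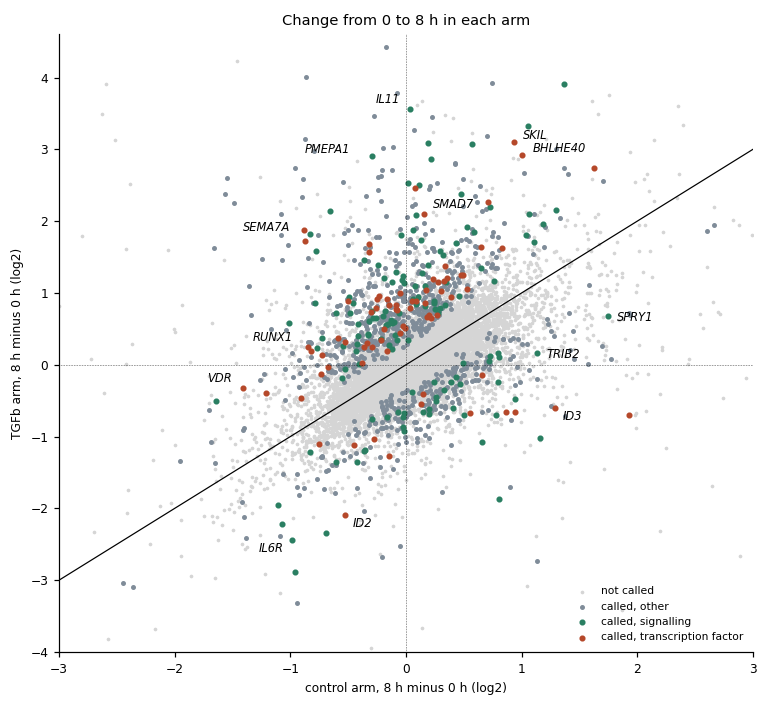
Change from 0 to 8 h (log2) in the untreated arm on the x axis and in the TGFβ arm on the y axis for each tested gene, with the diagonal marking no corrected effect; 41 genes lie outside the axes. Called transcription factors and signalling genes are coloured, with higher genes above the diagonal (SKIL, PMEPA1) and lower genes below it (ID2, IL6R), and genes such as VDR and TRIB2 leave the diagonal through the untreated arm.

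Among genes with transcription factor symbols, 75 of 1003 tested (7.48%, against 5.85% of all tested genes) were called, 62 higher and 13 lower. The 499 ZNF genes, a large zinc finger family, gave 9 of these calls (1.8%), and the other 504 factors gave 66 (13.1%), with 53 higher and 13 lower. Genes with signalling symbols (ligands, receptors, kinases, phosphatases and their regulators) were called in 135 of 881 cases (15.3%), with 92 higher and 43 lower. The symbol patterns missed some members of both families. PTHLH, ACKR3, GRK5 and SSTR1, and the factors BMAL1 and BNC2, counted as other genes. The pattern for transcription factors also took in SMAD7, SKIL, CITED2, ID2 and ID3, which are inhibitors, co-repressors or co-factors. The median corrected effect was 0.013 for transcription factors and 0.039 for signalling genes, against −0.008 over all tested genes (log2).

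SMAD7, the inhibitory SMAD that blocks the type I receptor, was at 5.91, 6.78 and 7.73 TPM in untreated cells at 0 h and at 7.10, 7.68 and 7.33 TPM at 8 h. The stimulated arm went from 7.48, 6.60 and 6.48 TPM to 31.9, 31.3 and 28.5 TPM. Every stimulated library at 8 h lay above all others, and the untreated arm was flat. The corrected effect was 3.84-fold (log2 1.94 ± 0.10 SE, adjusted p = 7.84e-08 with limma voom). SKIL, a co-repressor that binds SMADs, rose in both arms, from 6.12, 7.64 and 7.51 TPM to 11, 10.4 and 11.3 TPM without TGFβ and from 5.31, 6.98 and 6.81 TPM to 46.6, 46.4 and 47.5 TPM with it. Its rise in the TGFβ arm was 8.60-fold, and after the 1.91-fold rise of the untreated arm was taken off, a 4.51-fold effect remained (log2 2.17 ± 0.14, adjusted p = 4.31e-07 with limma voom).

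BHLHE40, a basic helix-loop-helix repressor of the circadian and hypoxia responses, was at 22.9, 23.3 and 28.2 TPM in untreated cells at 0 h and at 47.6, 49.97 and 45.7 TPM at 8 h. In the TGFβ arm the levels were 21.8, 24.7 and 26.8 TPM at 0 h and 179.7, 179.3 and 179.4 TPM at 8 h. Both arms thus rose, and the corrected effect of 3.77-fold (log2 1.91 ± 0.10, adjusted p = 8.68e-08 with limma voom) was what the TGFβ arm gained beyond the 2.01-fold rise of untreated cells. SOX4, a factor of the SOX family linked to EMT, behaved alike at a lower level. It rose from 12.4 ± 0.1 to 20.2 ± 0.7 TPM (mean ± SD, n = 3) without and from 11.8 ± 0.4 to 37.3 ± 1.8 TPM with TGFβ, a corrected effect of 1.99-fold.

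VDR, the vitamin D receptor, was higher in the corrected effect although it rose in neither arm. It fell from 16.9, 17.98 and 17.8 TPM to 6.55, 6.79 and 6.63 TPM in untreated cells. Under TGFβ it fell only from 15.1, 15.9 and 15.7 TPM to 13.0, 12.9 and 12.9 TPM. The 8 h libraries of the arms did not overlap, and the corrected effect was 2.12-fold (log2 1.08 ± 0.06, adjusted p = 1.97e-07 with limma voom). RUNX1, a factor of blood and epithelial cells, and ETS2, a target of RAS signalling, combined a fall in untreated cells with a small rise under TGFβ. RUNX1 went from 32.8 ± 2.4 to 19.0 ± 0.3 TPM without and from 31.5 ± 3.0 to 37.5 ± 0.9 TPM with TGFβ (2.13-fold). ETS2 went from 39.5 ± 1.0 to 28.9 ± 0.2 TPM and from 37.8 ± 2.2 to 49.2 ± 1.6 TPM (1.81-fold).

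SNAI2 and SNAI1, zinc finger repressors of E-cadherin, were both higher. SNAI2 was at 25.4, 28.0 and 26.7 TPM in untreated cells at 0 h and at 22.4, 23.2 and 23.8 TPM at 8 h, against 25.0, 29.99 and 26.8 TPM and then 47.4, 48.4 and 48.4 TPM in the TGFβ arm. The stimulated libraries at 8 h stood above all others, with a corrected effect of 2.08-fold (log2 1.06 ± 0.08, adjusted p = 2.24e-06 with limma voom). SNAI1 was lower in level, at 2.07 ± 0.09 TPM without and 5.38 ± 0.11 TPM with TGFβ at 8 h (n = 3), and its corrected effect was 2.63-fold. In the list of EMT transcription factors, 4 of 14 tested members were higher (SNAI1, SNAI2, SOX4 and HMGA2), 0 were lower, and the median was 0.17 against −0.01 over all tested genes. Over all tested genes 4.03% were higher and 1.82% lower, and each list below is to be read beside these shares. ZEB1 had a corrected effect of 0.15 ± 0.14 (log2, adjusted p = 0.63 with limma voom), and TWIST1 one of −0.28 ± 0.13 (adjusted p = 0.25).

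Besides SKIL, the rising factors above 1 TPM with the largest effects, chosen after their values were seen, were EGR2, a zinc finger factor of the growth response (6.76-fold, 0.554 ± 0.116 TPM without and 4.025 ± 0.235 TPM with TGFβ at 8 h), LHX1, a LIM homeobox factor (5.24-fold), and NFATC2, a calcium-dependent factor (4.03-fold). In the AP-1, EGR and immediate-early list, 5 of 22 members were higher and 1 was lower, with a median of 0.10. This is 27.3% called, against 5.85% of all tested genes. Without replicate 2 of the TGFβ arm at 0 h there were 6 higher and 3 lower, and MAFK, one of the 5, lost its call in 8 of the 12 fits without 1 library. JUN, a subunit of AP-1, stood at 38.1 ± 0.5 TPM without and 75.4 ± 3.9 TPM with TGFβ at 8 h (2.08-fold), and JUNB stood at 23.9 ± 0.7 and 66.6 ± 2.0 TPM (2.95-fold). The lower member was IER5, with 46.9 ± 0.04 TPM without and 22.1 ± 0.3 TPM with TGFβ. FOS, at 1.33 and 0.849 TPM on average at 8 h, did not pass (adjusted p = 0.089 with limma voom). Of 14 KLF factors 4 were higher and 0 lower, with a median of 0.23, among them KLF7 (2.27-fold) and KLF6 (1.41-fold). KLF4 and KLF10 lost the call without any 1 of the 6 libraries at 8 h, which left 2, and in limma fits on log2(TPM), with a pseudocount of 1 or of 0.1, KLF7 alone was called.

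**Figure D2:**
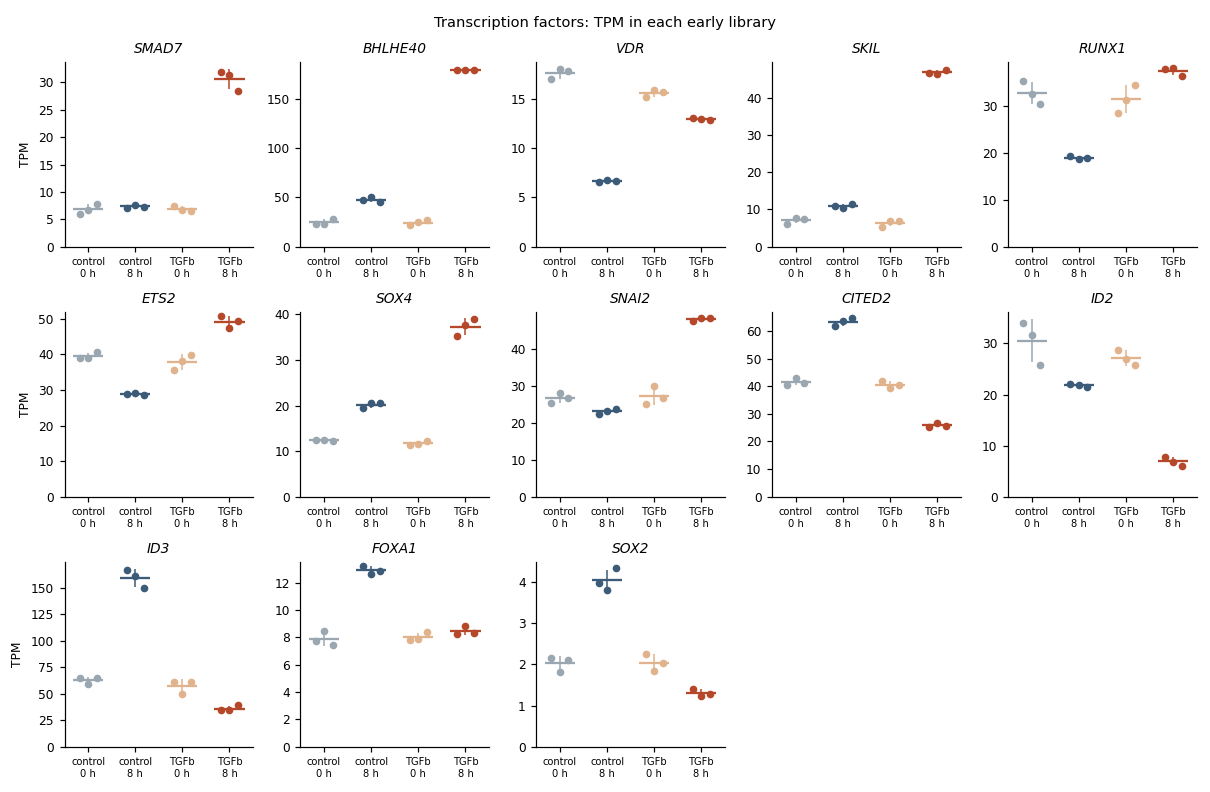
TPM of the 13 named genes with transcription factor symbols in each of the 12 libraries (y axis, from 0). Points are libraries, horizontal lines the mean of 3 and vertical lines the SD. The 13 were chosen for their low p in these same libraries, so that arms without overlap at 8 h were likely beforehand. SMAD7 moves only in the TGFβ arm, VDR mainly in the untreated arm, and ID3 in opposite directions.

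The falling factors were led by CITED2, a co-factor that competes for CBP and p300. It was at 40.5, 42.8 and 41.3 TPM in untreated cells at 0 h and rose to 61.7, 63.7 and 64.7 TPM. With TGFβ it fell from 41.9, 39.3 and 40.6 TPM to 25.2, 26.7 and 25.7 TPM. The arms thus moved apart in opposite directions, and the corrected effect was 0.43-fold (log2 −1.22 ± 0.08, adjusted p = 9.33e-07 with limma voom). ID2 fell in both arms, from 34.0, 31.7 and 25.9 TPM to 22.1, 21.9 and 21.4 TPM without and from 28.8, 27.0 and 25.8 TPM to 7.83, 6.85 and 6.00 TPM with TGFβ. The stimulated libraries at 8 h were the lowest of all, and the corrected effect was 0.336-fold (log2 −1.57 ± 0.14, adjusted p = 7.68e-06 with limma voom).

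ID3 rose in untreated cells, from 64.7, 59.6 and 64.7 TPM to 167, 161 and 150.1 TPM. In the TGFβ arm it fell, from 61.2, 49.7 and 61.4 TPM to 34.7, 34.7 and 39.0 TPM. The corrected effect was 0.27-fold (log2 −1.89 ± 0.18, adjusted p = 1.87e-05 with limma voom). ID1 rose in both arms, to 135 TPM without and 89.4 TPM with TGFβ on average, and its corrected effect of −0.48 ± 0.18 (log2) did not pass (adjusted p = 0.13 with limma voom). HES1, a Notch target, was higher, since it fell from 30.2 ± 1.2 to 19.6 ± 1.0 TPM in untreated cells and stood at 29.0 ± 0.6 TPM at both times in the TGFβ arm. Of the 12 ID, HES and HEY genes tested, 1 was higher and 2 were lower, with a median of 0.03.

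SOX2 and FOXA1, factors of epithelial lineages, were lower, and TP63, the basal and squamous p53 relative, was higher. SOX2 went from 2.16, 1.82 and 2.10 TPM to 3.97, 3.81 and 4.33 TPM in untreated cells and from 2.25, 1.83 and 2.02 TPM to 1.41, 1.24 and 1.27 TPM with TGFβ (0.33-fold, adjusted p = 4.43e-05 with limma voom). FOXA1 rose from 7.90 ± 0.54 to 12.9 ± 0.3 TPM in untreated cells, while the TGFβ arm, at 8.03 ± 0.31 and 8.47 ± 0.32 TPM, was not called. TP63 rose in both arms, to 16.7 ± 1.3 TPM without and 28.8 ± 1.5 TPM with TGFβ, and its corrected effect was 1.73-fold. Of the 14 epithelial and squamous factors tested, 2 were higher and 2 were lower, with a median of −0.16. KLF4, the other higher factor, had a corrected effect of 0.44 ± 0.09 (log2) and lost its call in 7 of the 12 fits without 1 library.

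PMEPA1, a membrane protein that sequesters SMADs, had the lowest p among signalling genes. It was at 60.7, 50.3 and 57.7 TPM in untreated cells at 0 h and at 49.5, 47.2 and 44.4 TPM at 8 h. In the TGFβ arm it was at 57.4, 39.5 and 60.6 TPM at 0 h and at 486, 485 and 456 TPM at 8 h. Stimulated libraries stood far above all others, and the corrected effect was 9.23-fold (log2 3.21 ± 0.07, adjusted p = 1.35e-10 with limma voom). In the list of SMADs, co-repressors and feedback genes, 6 of 22 members were higher and 0 were lower, with a median of 0.09. The 6 were PMEPA1, SMAD7, SKIL, LDLRAD4, which like PMEPA1 binds SMADs (3.62-fold), SMAD6, the inhibitor of BMP signalling (2.02-fold), and the ubiquitin ligase SMURF1 (1.64-fold). The call of SMAD6 was lost on both log2(TPM) scales and with length-scaled counts (highest adjusted p = 0.032 with limma). SMAD6 fell in untreated cells, from 5.93 ± 0.56 to 3.52 ± 0.36 TPM, and was not called in the TGFβ arm, at 6.20 ± 1.36 and 6.57 ± 0.25 TPM. The receptor SMADs were not called, with 0.14 ± 0.05 for SMAD3 and −0.05 ± 0.09 for SMAD2 (log2, adjusted p = 0.15 and 0.85 with limma voom).

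Among ligands, receptors and antagonists of the TGFβ superfamily, 7 of 29 tested members were higher and 3 were lower, with a median of 0.04. LTBP2, a matrix protein related to the latent TGFβ binding proteins, went from 11.2, 9.29 and 10.3 TPM to 12.1, 12.6 and 11.1 TPM without and from 8.53, 8.65 and 11.1 TPM to 46.6, 44.2 and 44.5 TPM with TGFβ (3.996-fold, adjusted p = 2.43e-08 with limma voom). FSTL3, an activin antagonist, reached 140.3 ± 4.2 TPM with and 21.5 ± 0.3 TPM without TGFβ at 8 h (6.97-fold), and NOG, which encodes the BMP antagonist noggin, reached 6.38 ± 0.53 and 1.75 ± 0.10 TPM (3.75-fold). Of the receptors, BMPR2 was higher (1.73-fold), and the co-receptor TGFBR3 was lower, at 2.01 ± 0.22 TPM with and 4.28 ± 0.71 TPM without TGFβ at 8 h. The calls of BMPR2 and TGFBR3 were lost on both log2(TPM) scales (highest adjusted p = 0.019 and 0.027 with limma), and that of TGFBR3 also with length-scaled counts. The ligand BMP4 was lower as well, at 26.1 ± 0.7 and 49.0 ± 2.1 TPM. GDF15, a stress-induced ligand, rose from 46.5 to 89.7 TPM on average in untreated cells and was not called in the TGFβ arm (0.374-fold). TGFB1 itself stood at 129 ± 5 TPM with and 70.9 ± 2.9 TPM without TGFβ (1.91-fold, adjusted p = 0.0074 with limma voom), a call that was lost in 9 of the 12 fits without 1 library.

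CCN2, a matricellular growth factor, was at 10.8, 10.5 and 12 TPM in untreated cells at 0 h and at 12.7, 13.2 and 13.4 TPM at 8 h. With TGFβ it went from 11.8, 12.2 and 11.96 TPM to 104.3, 104.3 and 103 TPM, and no stimulated library came near any other. The corrected effect was 7.45-fold (log2 2.90 ± 0.08, adjusted p = 5.15e-10 with limma voom). CCN1 of the same family rose in both arms (corrected effect 2.06-fold), whereas CCN3 fell in both, from 16.4 ± 0.7 to 12.9 ± 0.4 TPM without and from 16.4 ± 0.5 to 6.57 ± 0.43 TPM with TGFβ (0.523-fold). CCN1, CCN2 and 4 other genes, WWTR1, VGLL3, VGLL4 and ANKRD1, made up the 6 higher of 15 tested genes of YAP, TAZ and TEAD and their targets. None of the 15 was called lower, and the median was 0.24. WWTR1 and VGLL3 lost the call on both log2(TPM) scales, and VGLL4 lost it in 3 of the 12 fits without 1 library.

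The receptors of thrombin and related proteases were higher. F2RL1 (PAR2) was at 52.4, 57.2 and 52.3 TPM in untreated cells at 0 h and at 34.7, 32.7 and 31.9 TPM at 8 h, against 51.1, 59.2 and 52.5 TPM and then 164, 161 and 169 TPM in the TGFβ arm. It fell without and rose with TGFβ, which gave a corrected effect of 5.12-fold (log2 2.36 ± 0.08, adjusted p = 4.40e-09 with limma voom). F2R (PAR1) did the same, from 24.8 ± 0.3 to 14.9 ± 0.2 TPM without and from 22.7 ± 1.4 to 41.8 ± 0.1 TPM with TGFβ (3.12-fold). SEMA7A, a semaphorin that binds integrins, was at 79.01, 73.7 and 79.6 TPM and then 48.0, 47.7 and 43.6 TPM in untreated cells, and at 74.9, 66.0 and 79.6 TPM and then 284, 272 and 261 TPM in the TGFβ arm. Its corrected effect was 6.26-fold (log2 2.65 ± 0.11, adjusted p = 1.12e-08 with limma voom).

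The kinases SGK1 and NUAK1 rose only where TGFβ was given. SGK1, a kinase of the AKT group, was at 9.45, 9.09 and 9.39 TPM and then 10.3, 8.94 and 8.51 TPM in untreated cells, and went from 8.49, 10.01 and 9.89 TPM to 57.5, 51.4 and 56.8 TPM in the TGFβ arm (5.72-fold, adjusted p = 6.75e-09 with limma voom). The untreated change of SGK1 was not called (adjusted p = 0.86). NUAK1, an AMPK-related kinase, reached 18.7 ± 0.4 TPM with and 6.09 ± 0.26 TPM without TGFβ at 8 h (3.06-fold).

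Secreted factors held some of the largest effects. IL11, a cytokine of the interleukin-6 family, was at 4.003 ± 0.50 TPM without and 44.5 ± 2.4 TPM with TGFβ at 8 h (11.6-fold, log2 3.53 ± 0.20, adjusted p = 1.92e-07 with limma voom). IL6 was higher too (2.70-fold). The receptor subunit IL6R moved the other way. It fell from 19.2, 17.6 and 20.3 TPM to 10.3, 9.50 and 10.2 TPM in untreated cells and from 15.5, 17.1 and 17.8 TPM to 4.603, 4.10 and 3.66 TPM with TGFβ, so that both arms fell and the stimulated one fell further (0.366-fold, adjusted p = 1.15e-07 with limma voom). In the interleukin-6 family list 4 of 15 tested members were higher and 2 lower, with a median of −0.05. Without replicate 2 of the TGFβ arm at 0 h there were 4 higher and 4 lower, and LIF, one of the higher, lost its call in 7 of the 12 fits without 1 library.

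PDGFB and PDGFA, ligands of the platelet-derived growth factor receptors, were 4.80-fold and 2.30-fold higher, with 15.8 ± 0.8 against 4.35 ± 0.33 TPM and 55.7 ± 3.6 against 24.7 ± 1.4 TPM at 8 h. In the list of PDGF, VEGF and FGF genes 4 of 18 were higher and 1, the receptor PDGFRA, was lower, with a median of 0.36. The call of PDGFRA was lost on both log2(TPM) scales and with length-scaled counts. Of the Wnt and Notch genes 6 of 24 tested were higher and 1 was lower, with a median of 0.20. WNT7A and FZD7, the lower one, each lost the call in 5 of the 12 fits without 1 library, and without replicate 2 of the TGFβ arm at 0 h there were 7 higher and 4 lower. WNT5B, a ligand of non-canonical Wnt signalling, was at 8.24 ± 0.51 TPM without and 46.4 ± 1.4 TPM with TGFβ (5.66-fold), and the Notch ligand JAG1 was at 19.9 ± 1.0 and 37.0 ± 1.0 TPM (1.96-fold).

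Of the 14 tested genes of the EGF family, 5 were lower and 1 was higher, with a median of −0.43. The lower count depended on the scale, since AREG alone was lower on both log2(TPM) scales and 2 genes were lower with length-scaled counts. The lower genes were the receptor ERBB3 (0.60-fold) and the ligands AREG (0.626-fold), NRG1 (0.592-fold), BTC (0.649-fold) and NRG4, whose call was lost in 9 of the 12 fits without 1 library. The higher gene was the ligand HBEGF (1.76-fold). EGFR was not called, at 0.15 ± 0.10 (log2, adjusted p = 0.47 with limma voom). Of the 15 MAPK feedback phosphatases and Sprouty genes tested 0 were higher and 1 was lower, with a median of 0.23. This share of 6.67% called is near the 5.85% of all tested genes. The lower one, SPRY1, rose in both arms, to 6.95 ± 0.34 TPM without and 3.20 ± 0.41 TPM with TGFβ.

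**Figure D3:**
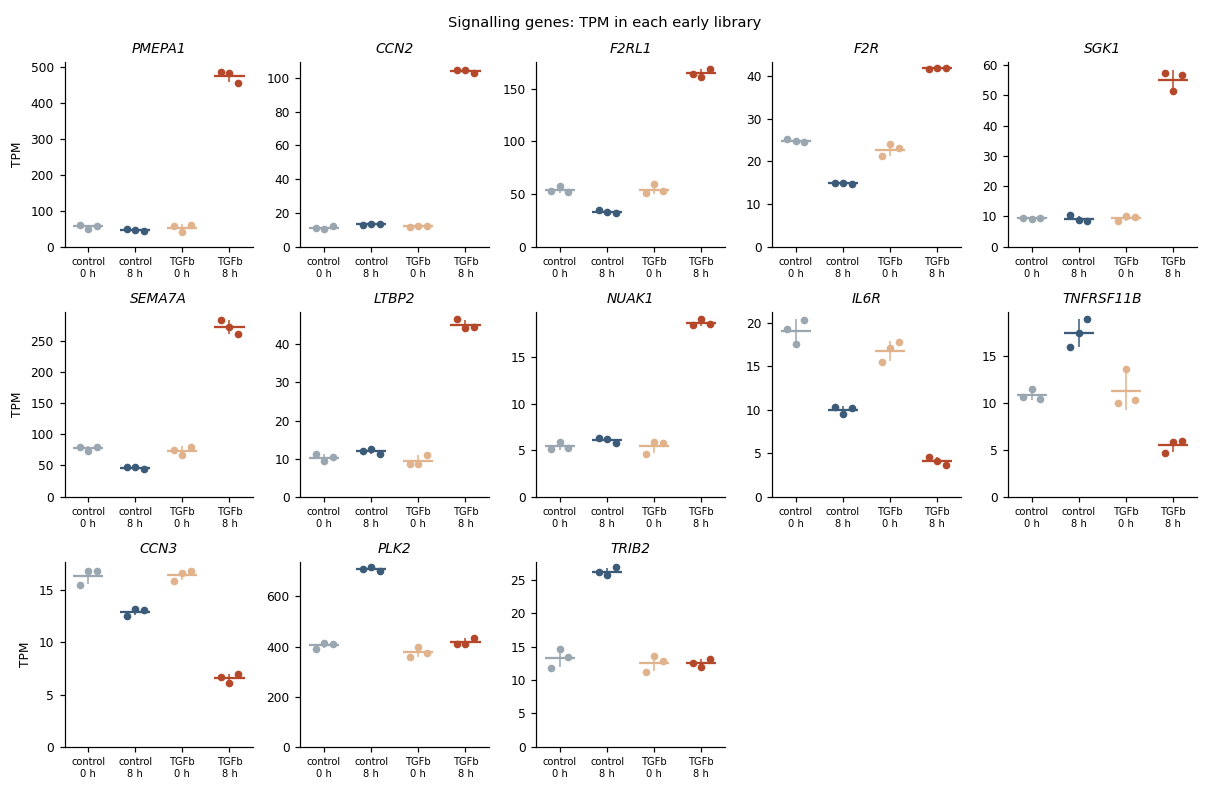
TPM of the 13 named signalling genes in each of the 12 libraries (y axis, from 0), with points for libraries, horizontal lines for the mean of 3 and vertical lines for the SD. PMEPA1, CCN2 and SGK1 stay low in 3 groups and stand high at 8 h with TGFβ, whereas PLK2 and TRIB2 move in the untreated arm.

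Among the falling signalling genes, TNFRSF11B, the decoy receptor osteoprotegerin, rose from 10.7, 11.5 and 10.4 TPM to 16.0, 17.4 and 19.0 TPM in untreated cells and fell from 9.98, 13.6 and 10.3 TPM to 4.62, 5.80 and 5.97 TPM with TGFβ (0.299-fold, adjusted p = 1.04e-06 with limma voom). PLK2, a stress-related polo-like kinase, rose from 391, 416 and 409 TPM to 711, 719 and 703 TPM in untreated cells. The TGFβ arm was at 360, 400 and 376 TPM and then 409, 412 and 434 TPM, which was not called (adjusted p = 0.35 with limma voom), so that its corrected effect of 0.635-fold lay in the untreated arm. The pseudokinase TRIB2 showed the same form, from 13.3 ± 1.4 to 26.3 ± 0.6 TPM without and 12.6 ± 1.3 and 12.6 ± 0.6 TPM with TGFβ (0.509-fold).

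Cytoskeletal and matrix genes had the highest shares of calls among the lists. Of 31 actin cytoskeleton and adhesion genes 15 were higher (48.4%) and 0 lower, with a median of 0.55. TPM1, a tropomyosin, went from 206, 213 and 206 TPM to 194, 196 and 194 TPM without and from 199.5, 221 and 196 TPM to 884, 867 and 900.5 TPM with TGFβ (4.74-fold, adjusted p = 7.27e-10 with limma voom). The integrins ITGB3 (4.83-fold) and ITGA5 (2.61-fold) were higher as well, and the smooth muscle genes ACTA2 and TAGLN were not called. Of 31 tested genes of the extracellular matrix and its proteases 18 were higher and 1 was lower (61.3% called), with a median of 0.58. TGFBI, a secreted matrix protein, was at 507, 522 and 490.3 TPM and then 407, 424 and 410.2 TPM in untreated cells, and at 512, 572 and 505 TPM and then 1418, 1421 and 1415 TPM in the TGFβ arm (3.43-fold, adjusted p = 7.27e-10 with limma voom). The urokinase gene PLAU was 3.82-fold and the metalloprotease gene ADAM19 5.30-fold higher. TIMP3, an inhibitor of matrix proteases, was the lower gene (0.394-fold). FN1, which encodes fibronectin, was not called, at 0.09 ± 0.08 (log2, adjusted p = 0.66). The summed level of the 7 fibroblast markers was 198 to 306 TPM in the 9 other libraries and 794 to 865 TPM in the stimulated libraries at 8 h, mostly COL1A1. Of these markers 2 were higher and 1 lower, DCN and THY1 were not called, and the part of such cells in the matrix result was not tested.

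The 3 other genes named for their low p were DCBLD1, RGCC and SSTR1. DCBLD1, a membrane protein, rose in both arms, to 33.9 ± 1.5 TPM without and 104 ± 3 TPM with TGFβ (3.35-fold). RGCC, a cell cycle regulator, fell from 72.4 ± 2.8 to 11.4 ± 0.9 TPM in the TGFβ arm and was at 71.9 ± 2.3 and 64.8 ± 0.4 TPM in untreated cells (0.179-fold). SSTR1, a somatostatin receptor, fell in both arms, to 6.12 ± 0.18 TPM without and 1.12 ± 0.14 TPM with TGFβ (0.193-fold). Of the cell cycle inhibitors and MYC, 3 of 14 tested were higher and 3 lower, with a median of 0.08. CDKN1B, which encodes p27, was lower (0.687-fold). CDKN1A, which encodes p21, fell in both arms, to 63.5 ± 0.6 TPM without and 83.6 ± 1.3 TPM with TGFβ, and its higher corrected effect of 1.42-fold lost its call in 4 of the 12 fits without 1 library. MYC was not called (0.21 ± 0.10 on the log2 scale, adjusted p = 0.26 with limma voom). The list of epithelial junction genes also holds the mesenchymal markers CDH2 and VIM. Of its 18 tested members 3 were higher (PKP1, CDH2 and VIM) and 0 lower, with a median of 0.23. CDH1, which encodes E-cadherin, was at 1.51 TPM without and 1.97 TPM with TGFβ at 8 h and was not called (adjusted p = 0.31 with limma voom).

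**Figure D4:**
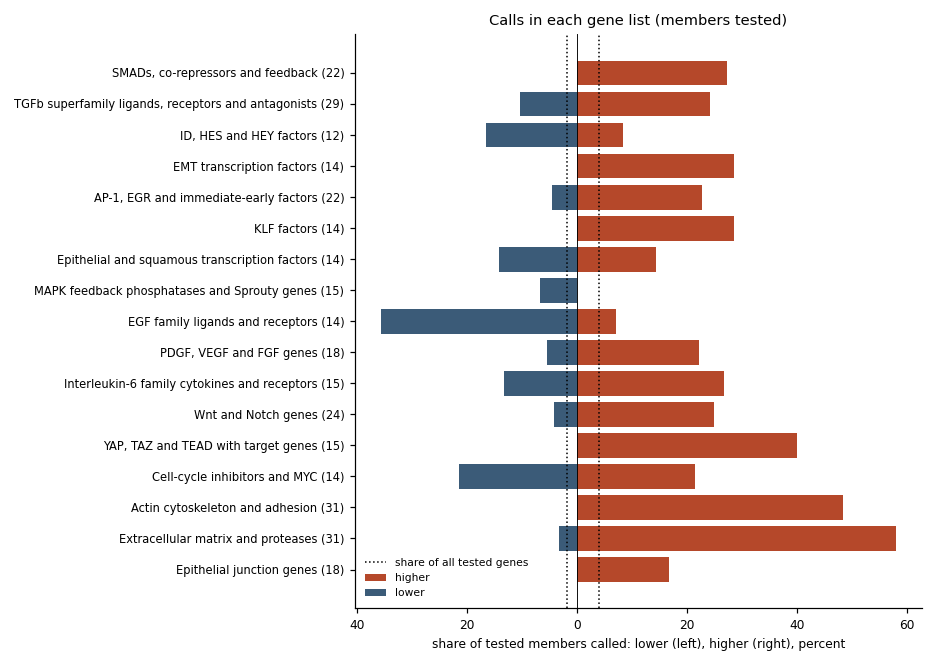
Share of the tested members of each of 17 gene lists (y axis, number tested in parentheses) called higher (right) or lower (left) in the corrected effect, in percent. Dotted lines give the shares over all tested genes, 4.03% higher and 1.82% lower; the matrix list reaches furthest to the right and, with estimated counts in limma voom, the EGF family furthest to the left.

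The levels at 24 and 48 h come from other libraries, whose codes coincide with the arms, so that batch and treatment cannot be told apart there. They are given without a test. At 24 h, 639 of the 680 higher genes (94%) had every TGFβ library above every untreated one, against 17.4% of all tested genes, and 279 of the 308 lower genes (90.6%) had every TGFβ library below, against 23.3%. At 48 h these numbers were 616 (90.6%, against 24.8%) and 277 (89.9%, against 30.9%). SMAD7 stood at 33.7 TPM with and 6.57 TPM without TGFβ at 24 h and at 45.6 and 8.07 TPM at 48 h. SKIL reached 81.5 TPM with TGFβ at 48 h, against 10.8 TPM without. The gap of ETS2 narrowed, with 44.2 and 25.8 TPM at 24 h and 31.1 and 28.1 TPM at 48 h. ID3 was at 26.7 TPM with and 196 TPM without TGFβ at 24 h, and SOX2 at 1.07 and 7.41 TPM.

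**Figure D5:**
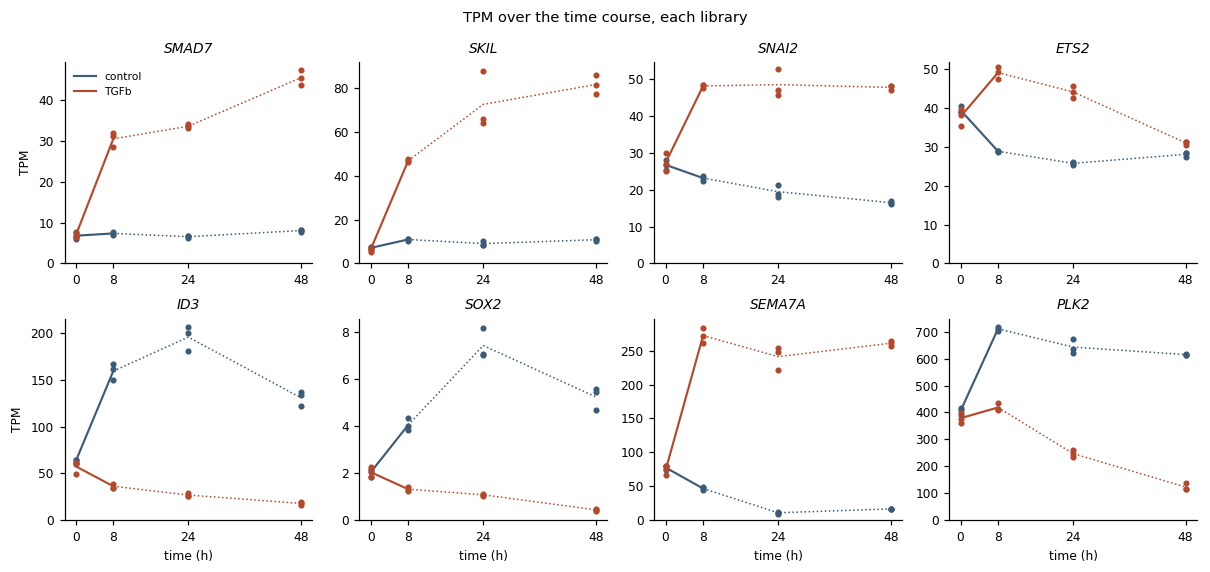
TPM (y axis, from 0) of 8 named genes over time in h (x axis), with points for libraries and lines through the means of 3; solid lines join 0 and 8 h and dotted lines lead to the later libraries, which carry other codes. ETS2 comes close at 48 h, at 31.1 TPM with and 28.1 TPM without TGFβ, while the other 7 stay far apart.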

How the data were processed

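The authors sequenced the libraries on an Illumina HiSeq instrument and quantified them with kallisto 0.43.0 against Ensembl release 79 transcripts of GRCh38. They deposited 1 table per library with estimated counts (expected counts, not normalized) and TPM for 173259 transcripts. The effective lengths deposited by the authors (other values) served only the length-scaled alternative. Here, transcripts were joined to GENCODE release 44 genes by identifier (155518 matched), estimated counts were summed and rounded, and genes with at least 10 counts in at least 3 of the 12 libraries were tested with limma 3.58.1 (voom, TMM factors, 4 group means) in R 4.3.3. P-values were adjusted over all tested genes (Benjamini-Hochberg), and 0.01 was the threshold. TPM values are gene sums, and strand was not used. The authors' paper names the test, whereas the contrast was chosen here. The gene lists, the gene families (by symbol) and the contrast were chosen with earlier results of these data known.

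Named are protein-coding called genes of lowest p that reached 1 TPM on average in some group: 8 rising and 5 falling transcription factors, 8 and 5 signalling genes, 4 and 2 others, the 5 genes with the largest 0 h offset that did not pass, and members of the lists. Results of some genes and of a gene list are not reported here. Counts were simulated with 200 changed genes among 16694. Above 5 CPM, limma voom recovered 54 of 58 genes with a log2 change of 1 and 65 of 65 with one of 2. It called 4 unchanged genes. Unlike the data, the simulated counts changed only in the TGFβ arm at 8 h and held no library that stood apart. The recovery is therefore for that simpler setting. Alternatives were edgeR 4.0.16, DESeq2 1.42.0 and others given in the closing section. Tables and plots used Python 3.11.15.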

Additional observations from a re-analysis of the deposited data

Results flagged for a closer look

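The arms moved in opposite directions in 2 sets of genes, which were noted because the change from 0 to 8 h was called in both arms with opposite signs and the difference was called too (limma voom, adjusted p below 0.01 each). In the first set, 91 genes rose in the TGFβ arm and fell in the untreated arm. They include PMEPA1, F2RL1, F2R, SEMA7A, TGFBI, FSTL3, SNAI1, SNAI2 and RUNX1. PTHLH, which encodes parathyroid hormone-related protein, fell from 77.5 ± 2.8 to 39.1 ± 2.6 TPM (SD, n = 3) without and rose from 72.5 ± 6.5 to 199 ± 10 TPM with TGFβ, a corrected effect of 5.78-fold. In the second set, 32 genes fell in the TGFβ arm and rose in the untreated arm. CITED2, ID3, SOX2, TNFRSF11B and TIMP3 are among them, as is RGS2, a regulator of G protein signalling, with 27.9 ± 2.1 TPM without and 9.04 ± 1.44 TPM with TGFβ at 8 h.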

How the results depend on the processing

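All 32 genes given by the naming rule kept direction and call in each of the 26 other fits, with a highest adjusted p of 0.003. They were chosen for a low p in these same libraries, so that this outcome was likely beforehand. Of all 988 called genes, 686 held in each of 12 fits without 1 library and 504 in each of 14 other settings. Leaving out 1 library in turn gave 745 to 1242 genes in the corrected effect (533 to 820 higher, 210 to 431 lower), 0 to 0 at 0 h, 1501 to 3162 at 8 h, 740 to 1233 passing the correction, 3827 to 5385 in the TGFβ arm and 2451 to 5167 in the untreated arm. The highest numbers at 8 h and passing came without replicate 2 of the TGFβ arm at 0 h. Of the list members called, 14 of 114 lost the call in such a fit. With sample quality weights 2300 genes were called in the corrected effect (1309 higher, 991 lower), 2 at 0 h, 5560 at 8 h, 2252 passing and 7535 in the untreated arm. DESeq2 called 546 lower genes and 6 at 0 h, and all 24 libraries in the fit gave 509 lower genes. Lower genes numbered 176 with log2(TPM + 1) and 175 with log2(TPM + 0.1). At an adjusted p below 0.05 there were 1637 genes in the corrected effect (638 lower), 3498 at 8 h, 1605 passing and 5712 in the untreated arm. With a 2-fold limit there were 315 in the corrected effect (248 higher, 67 lower), 405 at 8 h, 812 in the TGFβ arm and 393 in the untreated arm. With this limit on both the 8 h difference and the corrected effect, 289 passed, against 308 with it on the 8 h difference only. Library totals, upper-quartile factors, DESeq2 size factors, both count filters and length-scaled counts left these counts within 1.5 times, and the causes of the shifts were not tested.

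The replicate numbers were not taken to pair the libraries, since not every same-numbered pair correlated above 0.1. Same-numbered libraries had a mean correlation of deviations of 0.017 (−0.086 to 0.323 over 18 pairs), and 6 of 12 libraries correlated best with their own number. Between the arms at 0 h the same-numbered libraries correlated at 0.222, 0.323 and 0.071, against −0.274 to 0.109 for different numbers. With the replicate block 959 genes were called in the corrected effect. With the replicate block within each arm there were 629 (168 lower), 694 at 8 h and 574 passing. In that fit the 8 h comparison is at the level of replicate 1 of each arm, so that 694 and 574 are not comparable with the other fits. In simulated counts 62 of 100 genes with a log2 change of 1 were recovered over all levels of expression, against 54 of 58 above 5 CPM.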

Other observations

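Genes of the chorionic gonadotropin beta subunit, a placental hormone chain that some carcinomas express, were chosen here after their values were seen. Of the 6 CGB genes tested, 5 were higher in the corrected effect (limma voom), against 4.03% of all tested genes. CGB8 was at 130, 120.1 and 118.5 TPM in untreated cells at 0 h and at 47.3, 49.2 and 39.7 TPM at 8 h. In the TGFβ arm it was at 149, 114 and 143 TPM and then at 680, 695 and 587 TPM. The stimulated libraries lay above all others, and the corrected effect was 13.3-fold (log2 3.74 ± 0.17, adjusted p = 2.66e-08 with limma voom). CGB5 was at 19.4 ± 2.7 TPM without and 403 ± 27 TPM with TGFβ at 8 h. The CGB genes are near-identical copies, so that reads can be divided among them wrongly and the value of each copy is uncertain.

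ODAPH and AMTN, genes known from tooth enamel, were also chosen after their values were seen. ODAPH was at 0.642 ± 0.083 TPM without and 17.0 ± 0.4 TPM with TGFβ at 8 h (28.4-fold, adjusted p = 4.66e-07 with limma voom), and AMTN was at 0.601 ± 0.029 and 16.2 ± 1.3 TPM (24.2-fold, adjusted p = 2.53e-06). At 48 h, without a test, ODAPH stood at 5.63 TPM and AMTN at 193 TPM with TGFβ, each below 1 TPM without. KRT17, a keratin that shares reads with near copies, was at 0.699 ± 0.044 TPM without and 7.58 ± 0.70 TPM with TGFβ at 8 h (13.0-fold, adjusted p = 1.86e-05 with limma voom).

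The cytokine genes IL1B and CXCL5, which act in inflammation, were lower and were likewise chosen after their values were seen. CXCL5 was at 71.8, 69.95 and 71.9 TPM without and 40.4, 38.4 and 40.5 TPM with TGFβ at 8 h, without overlap, and its corrected effect was 0.57-fold (log2 −0.81 ± 0.10, adjusted p = 2.13e-04 with limma voom). IL1B was low, at 0.963, 1.23 and 1.23 TPM without and 0.313, 0.447 and 0.380 TPM with TGFβ at 8 h (0.32-fold, adjusted p = 5.94e-04 with limma voom).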
